A study of Mus musculus with 10 samples.

Results

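The hypoxia factors and angiogenic signals described here are 9 genes, Hif1a, Epas1, Arnt, Egln1, Egln3, Vegfa, Kdr, Flt1 and Adm, out of 18193 genes that the arrays name. Every probe set annotated to exactly 1 of these symbols was taken, which gave 24 probe sets, 18 on the MOE430A array and 6 on the MOE430B array. The genes were chosen by name with the intensities of the same arrays, in all 3 kinds of sample, already known, so their values in both comparisons below are a description and carry no p-value.

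Embryos were collected at 5.5 days post coitum (embryonic day 5.5) from matings labelled B6SJLF1×CerlP-GFP, in which a Cer1 promoter drives a green fluorescent reporter in the anterior visceral endoderm. The groups were the anterior distal fragment (Ad), which holds the fluorescent visceral endoderm and the epiblast beneath it, the posterior proximal fragment (Pp), which holds proximal visceral endoderm and epiblast from the opposite side, and the whole embryo. All groups shared the reporter background and received no treatment. For each array type there were 2 arrays of Ad, 2 of Pp and 1 of the whole embryo. The labels do not say how many embryos went into a sample, or that replicates came from separate embryos, so a p-value here reflects the spread between these samples alone, which may be technical. The RNA was linearly amplified before hybridisation. Whether the MOE430A and MOE430B arrays were made from the same RNA is not stated either. A like result on both array types may therefore not be a second observation.

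Hif1a and Epas1 encode the oxygen-regulated alpha subunits of the hypoxia-inducible factors, and Arnt encodes the beta subunit with which they bind DNA. In well oxygenated cells the prolyl hydroxylases encoded by Egln1 and Egln3 mark the alpha subunits for destruction, a control that acts on the protein and not on the alpha subunits' RNA. The stabilised factors raise transcription of genes such as Vegfa, Adm and Egln3 itself. Vegfa is the ligand of the receptor tyrosine kinases Kdr and Flt1, and Adm encodes the vasoactive peptide adrenomedullin. In the mouse this signalling is needed for the first blood vessels, which form after the stage studied here, while the decidua around the embryo is already vascular and trophoblast cells are a known source of Flt1 and Adm.

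The letters ACGTG are a form of the core that the hypoxia-inducible factors bind. Other forms of the core were not searched for, so a window without a match may hold one. The promoters of Adm and of Hif1a, whose signal was lower in the fragments than in the whole embryo (for Hif1a in 2 of 4 probe sets), and of Egln3, whose signal was higher in the fragments, are shown with that of Egln1, the other hydroxylase gene. Each is the 250 bases before a transcript start of the gene in RefSeq (GRCm38.p6), 5′ to 3′ on the gene's strand, with capitals for ACGTG or its reverse complement CACGT, which overlap where the letters read CACGTG. The starts of Egln1, Egln3 and Adm lie at the 5′ end of the annotated gene, while the Hif1a start lies inside its gene, downstream of the gene's first annotated base, so that its window is an internal one.
Hif1a, chr12:73907617-73907866, plus strand: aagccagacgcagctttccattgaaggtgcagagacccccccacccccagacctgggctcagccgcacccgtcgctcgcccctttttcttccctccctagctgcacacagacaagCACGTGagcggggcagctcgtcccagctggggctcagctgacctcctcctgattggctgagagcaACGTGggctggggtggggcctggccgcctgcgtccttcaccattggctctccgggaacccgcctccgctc
Egln1, chr8:124949255-124949504, minus strand: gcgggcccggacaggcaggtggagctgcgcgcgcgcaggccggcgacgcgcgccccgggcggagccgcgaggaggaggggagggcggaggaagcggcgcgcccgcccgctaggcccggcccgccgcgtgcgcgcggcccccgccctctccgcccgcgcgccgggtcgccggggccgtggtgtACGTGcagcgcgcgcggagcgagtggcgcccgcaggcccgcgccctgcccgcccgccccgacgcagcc
Egln3, chr12:54203875-54204124, minus strand: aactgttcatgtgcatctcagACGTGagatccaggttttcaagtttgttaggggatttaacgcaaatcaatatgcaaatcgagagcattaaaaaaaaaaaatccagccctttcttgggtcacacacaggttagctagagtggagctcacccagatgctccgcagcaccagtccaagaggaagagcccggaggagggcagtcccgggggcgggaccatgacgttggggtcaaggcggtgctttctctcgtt
Adm, chr7:110627407-110627656, plus strand: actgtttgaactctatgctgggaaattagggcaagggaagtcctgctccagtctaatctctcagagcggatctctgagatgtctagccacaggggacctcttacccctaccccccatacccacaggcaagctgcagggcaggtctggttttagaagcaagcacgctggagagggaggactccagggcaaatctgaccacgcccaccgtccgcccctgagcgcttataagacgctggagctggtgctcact

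Matches began 135 and 70 bases before the internal start of Hif1a, 68 bases before that of Egln1 and 229 bases before that of Egln3. The Adm window held none, nor did those of Arnt, Kdr and Flt1, whose starts also lie inside the annotated genes. Of 2 Vegfa entries, the internal one held a match, 211 bases before its start. In all, 4 of the 8 members with an entry had ACGTG or CACGT in an entry, and 4 of 9 entries (44.4%) held it, against 5444 of 32851 entries (16.6%) for all genes. A match of these letters is not a bound site. Epas1 was not among the entries.

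Signal is the deposited intensity of a probe set, a linear value in arbitrary units. It depends on the probes, so levels are compared between samples and never between probe sets. A probe set entered the linear model when its mean log2 value lay above the 40th percentile, which matches an intensity of 464 on MOE430A and 37.2 on MOE430B. That filter kept 15 of the 24 probe sets, 11 on MOE430A and 4 on MOE430B. The other 9 are given by their intensities alone. Differences are fitted log2 differences with a pseudocount of 248 (MOE430A) or 10.5 (MOE430B), which draws low signals towards 0. A count of calls uses limma with a Benjamini-Hochberg adjusted p under 0.05 over all kept probe sets.

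Marker genes were read as a description of the samples. Of 8 anterior visceral endoderm genes on MOE430A, 4 rose in Ad against Pp, among them the secreted Nodal antagonist gene Lefty1 (log2 difference 2.20, limma adjusted p = 0.0136), and all 8 were positive. Cer1, the gene of the reporter's promoter, had 1532 and 1413 units in Ad and 899 and 861 in Pp. It did not pass (0.54, limma adjusted p = 0.0864). Visceral endoderm genes rose in the fragments, by the mean of Ad and Pp, in 3 of 13 cases on MOE430A and 0 of 3 on MOE430B. Anterior visceral endoderm genes did so in 5 of 8 and 0 of 1, and epiblast genes in 5 of 8 and 1 of 2. Of those anterior genes, Otx2 alone had every fragment above the whole embryo. For Lefty1, Hesx1, Lhx1 and Foxa2 the whole embryo lay within the range of the fragments, below both Ad arrays. Lefty1, for example, had 912 and 987 units in Pp, against 1398 in the whole embryo. Of the parietal endoderm genes 4 of 7 and 0 of 2 fell. Decidual markers separated the whole embryo from the fragments. Their summed signal over 10 measured genes on MOE430A was 7427 to 7878 in Ad and 7169 to 7597 in Pp, against 25485 in the whole embryo, and over 3 genes on MOE430B it was 208 to 304 in Ad and 250 to 325 in Pp, against 5212. On these lists 6 of 10 and 3 of 3 genes fell in the fragments. Pgr and Esr1 fell on MOE430B alone, and their MOE430A probe sets lay at 0.06 and 0.15 and did not pass. Pp replicate 2 stood apart from Pp replicate 1 in extraembryonic ectoderm genes, with a summed signal of 14109 against 8704 over 8 genes, and Ad replicate 2 had 812 units of the decidual prolactin gene Prl3c1, where the other fragments had 86.9 to 96.9.

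**Figure D1:**
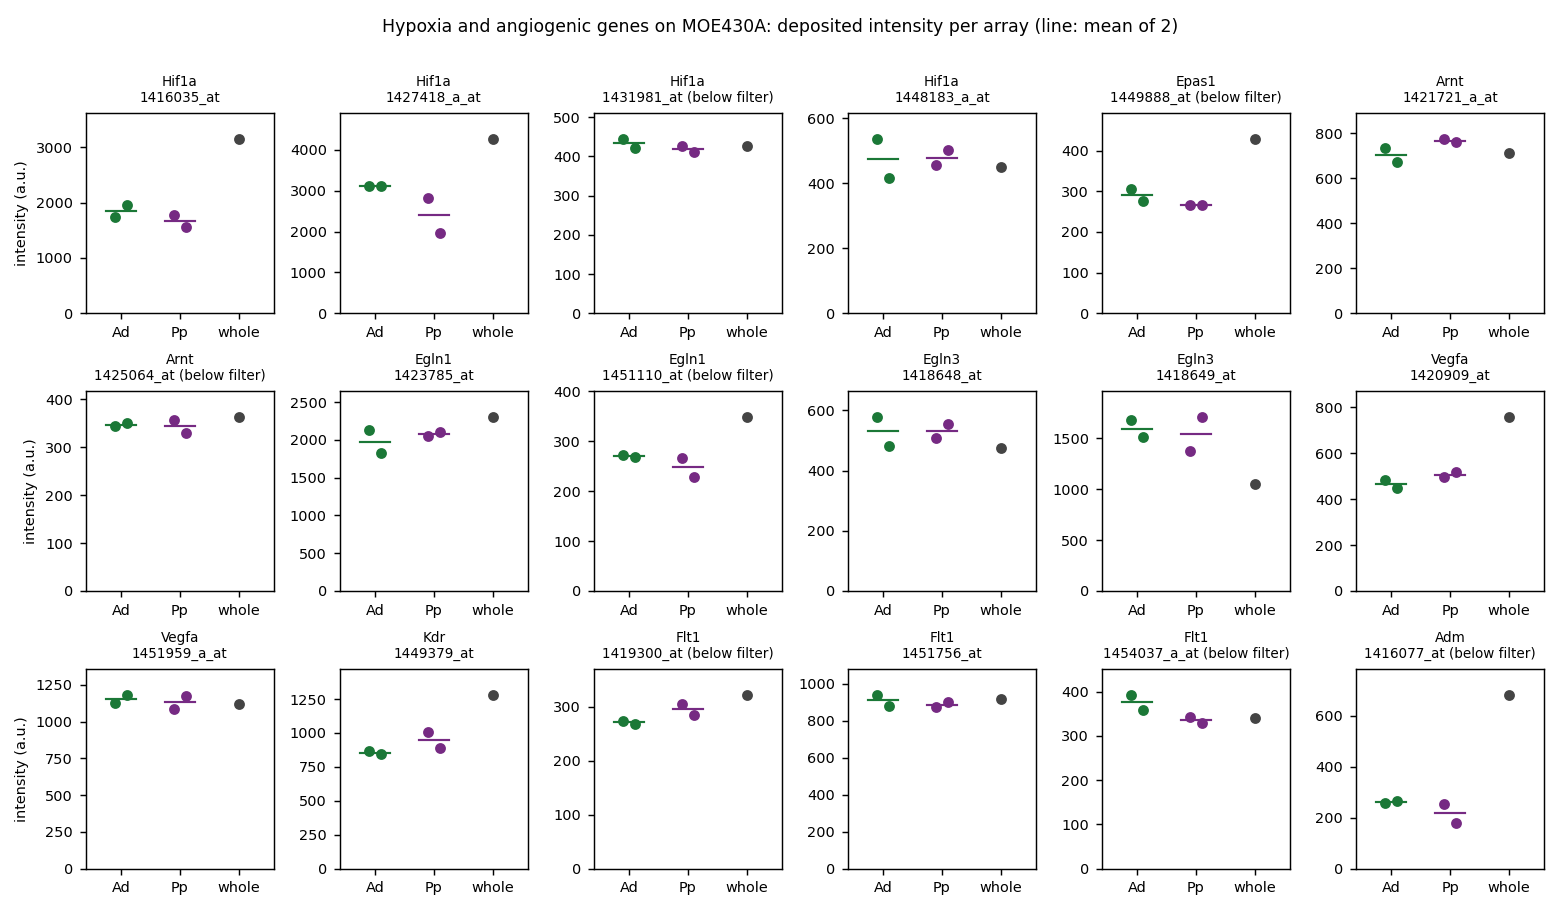
Deposited intensity (arbitrary units, linear axis from 0) of the 18 MOE430A probe sets of the 9 genes; each point is 1 array, green for Ad, purple for Pp, grey for the whole embryo, and short lines are means of 2 arrays. For Adm, Vegfa 1420909_at and Hif1a 1416035_at the whole embryo lies above all 4 fragments, and for both Egln3 probe sets it lies below them.

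Hif1a was measured by 4 probe sets on MOE430A, which did not move alike. Probe set 1416035_at had 1731 and 1961 units in the Ad arrays and 1777 and 1560 in the Pp arrays, against 3147 in the whole embryo. Probe set 1427418_a_at had 3107 and 3125 units in Ad and 2824 and 1969 in Pp, against 4263 in the whole embryo. In both the whole embryo lay above every fragment, with fitted differences of -0.68 (SE 0.10) and -0.53 (SE 0.17) for the fragments minus the whole embryo. For 1427418_a_at both Ad arrays also lay above both Pp arrays (log2 difference 0.30, SE 0.15), and the lowest value was in Pp replicate 2. The 1416035_at groups overlapped between Ad and Pp (0.06, SE 0.09), and its sign turned without Ad replicate 2 or without Pp replicate 2.

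The other Hif1a probe sets showed no such excess in the whole embryo. Probe set 1448183_a_at had 536 and 415 units in Ad and 455 and 501 in Pp, against 450 in the whole embryo (fragments minus whole embryo 0.13, SE 0.11). Probe set 1431981_at, below the filter, stayed between 410 and 444 units over the 4 fragments, with 426 units in the whole embryo. For these the whole embryo lay within the range of the fragments.

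Epas1, whose product HIF-2 alpha is the alpha subunit best known from endothelial cells, had the largest fitted difference of the 15 fitted probe sets in both comparisons. On MOE430B, probe set 1435436_at had 318 and 470 units in Ad and 156 and 143 in Pp, against 3336 in the whole embryo. The whole embryo was thus 7.10 times the highest fragment, and the fitted difference of the fragments minus the whole embryo was -3.74 (SE 0.23), a 13.4-fold lower level. Both Ad arrays lay above both Pp arrays, with a fitted difference of 1.24 (SE 0.20), or 2.36-fold. The lowest value of this Ad minus Pp difference over the alternative runs was 0.97. Because the Ad and Pp arrays did not overlap, leaving out an array could not turn its sign. Nothing is therefore read from the sign staying positive.

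The Epas1 probe set on MOE430A, 1449888_at, lay below the filter. It had 306 and 275 units in Ad and 265 and 266 in Pp, against 428 in the whole embryo. The order of the groups was that of the MOE430B probe set, at intensities among the dimmest of that array type, where the gap between Ad and Pp was small.

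Arnt, the beta subunit, had 5 probe sets. On MOE430A, 1421721_a_at had 735 and 671 units in Ad and 774 and 760 in Pp, against 711 in the whole embryo. On MOE430B, 1437042_at had 920 and 890 units in Ad and 1203 and 1039 in Pp, against 1258 in the whole embryo. Both placed Ad below Pp without overlap, by -0.16 (SE 0.07) and -0.38 (SE 0.15) on the log2 scale. They differed in the whole embryo, which lay within the fragments' range for the first and above all fragments for the second.

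A further Arnt probe set on MOE430B, 1419996_s_at, had 410 and 463 units in Ad and 443 and 487 in Pp, against 456 in the whole embryo, and its groups overlapped. Those below the filter were 1425064_at, between 330 and 357 units over the 4 fragments and 363 units in the whole embryo, and 1449696_at, with 27.8 and 25.9 units in Ad and 21.0 and 18.0 in Pp, against 32.2 in the whole embryo. That last one put Ad above Pp, opposite to 1421721_a_at and 1437042_at.

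Among the hydroxylases, Egln1 varied little between samples. Its brighter probe set, 1423785_at, had 2135 and 1823 units in Ad and 2049 and 2109 in Pp, against 2306 in the whole embryo. The groups Ad and Pp overlapped (-0.14, SE 0.08), and the whole embryo lay just above the highest fragment, with a fitted difference of -0.09 (SE 0.10) for the fragments minus the whole embryo. The dimmer 1451110_at, below the filter, had 272 and 269 units in Ad and 267 and 228 in Pp, against 349 in the whole embryo.

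Egln3 was the only one of the 9 genes with every fragment above the whole embryo, and this held for both of its probe sets. Probe set 1418649_at had 1679 and 1513 units in Ad and 1381 and 1712 in Pp, against 1048 in the whole embryo. Its fragments were 1.48-fold higher by the fit (log2 difference 0.56, SE 0.12). Probe set 1418648_at had 578 and 483 units in Ad and 508 and 556 in Pp, against 474 in the whole embryo (0.19, SE 0.09). Ad and Pp overlapped in both, at -0.02 (SE 0.11) and -0.07 (SE 0.08), and the sign turned without Ad replicate 2 in both.

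Vegfa, the ligand, was split between its probe sets. Probe set 1420909_at had 482 and 447 units in Ad and 496 and 517 in Pp, against 758 in the whole embryo, which lay above every fragment. The fitted difference was -0.38 (SE 0.08) for the fragments minus the whole embryo and -0.15 (SE 0.07) for Ad minus Pp, where the groups did not overlap. Probe set 1451959_a_at had 1126 and 1183 units in Ad and 1083 and 1176 in Pp, against 1117 in the whole embryo. For it the whole embryo lay within the fragments' range (0.11, SE 0.08) and Ad overlapped with Pp (-0.04, SE 0.07, positive with no centring and without Pp replicate 2).

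Adm was lower in every fragment than in the whole embryo on both array types. On MOE430B, probe set 1447839_x_at had 191 and 246 units in Ad and 207 and 258 in Pp, against 994 in the whole embryo. This is 3.85 times the highest fragment, and the fitted difference was -2.11 (SE 0.20), or 4.31-fold lower in the fragments. On MOE430A, 1416077_at had 259 and 267 units in Ad and 254 and 181 in Pp, all below the filter signal, against 682 in the whole embryo; fitted with no filter, the difference was -0.87. Ad and Pp overlapped on MOE430B (-0.16, SE 0.18, and 0.00 without Ad replicate 3), and on MOE430A Ad lay just above Pp. The ending _x_at marks a probe set some of whose probes can also bind other transcripts.

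**Figure D2:**
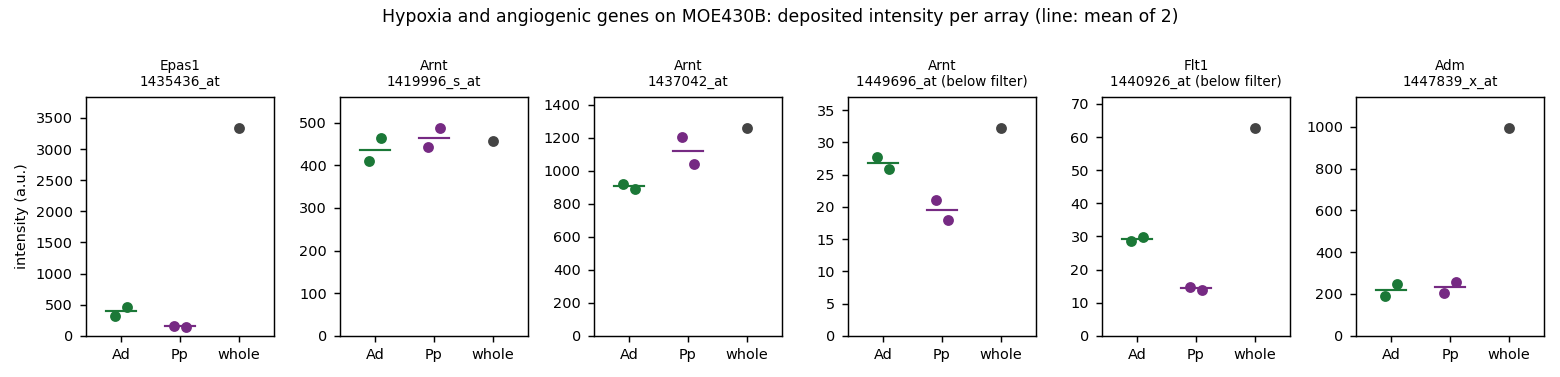
Deposited intensity (arbitrary units, linear axis from 0) of the 6 MOE430B probe sets, drawn as for MOE430A. Epas1 reaches 3336 and Adm 994 in the whole embryo, against at most 470 and 258 in the fragments.

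The receptors showed smaller gaps. Kdr, the main signalling receptor of Vegfa, had 869 and 843 units in Ad and 1008 and 891 in Pp, against 1282 in the whole embryo (1449379_at on MOE430A). The order was Ad, then Pp, then the whole embryo, with no overlap between neighbours. The fitted differences were -0.18 (SE 0.07) for Ad minus Pp and -0.33 (SE 0.08) for the fragments minus the whole embryo, a 1.26-fold lower level.

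Flt1, which binds Vegfa tightly and whose soluble form acts as a decoy, had 4 probe sets. The brightest on MOE430A, 1451756_at, had 940 and 881 units in Ad and 873 and 899 in Pp, against 918 in the whole embryo, so that all groups overlapped; its differences, -0.04 (SE 0.07) for Ad minus Pp and 0.05 (SE 0.08) for the fragments minus the whole embryo, changed sign with no centring. The others lay below the filter. On MOE430B, 1440926_at had 28.7 and 29.7 units in Ad and 14.8 and 13.7 in Pp, against 62.7 in the whole embryo, with no overlap between any of the groups. On MOE430A, 1419300_at was between 268 and 305 units over the 4 fragments and at 322 units in the whole embryo, and put Ad below Pp. The last, 1454037_a_at, was at 393 and 359 units in Ad and 343 and 330 in Pp, against 340 in the whole embryo.

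**Figure D3:**
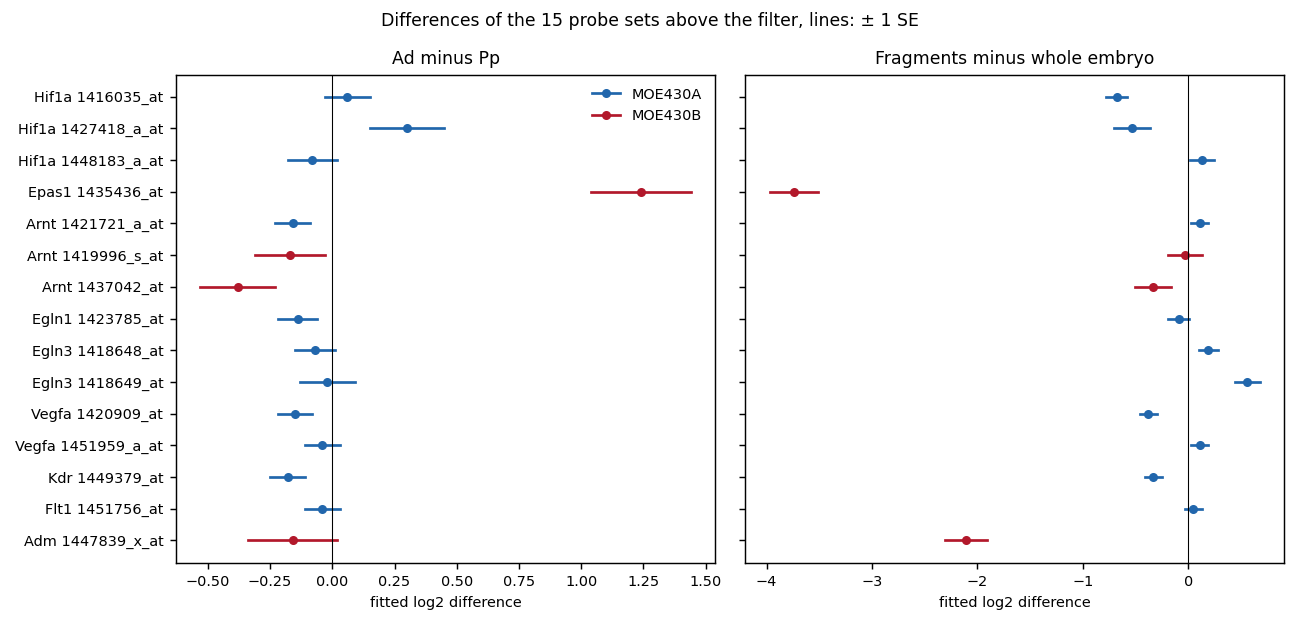
Fitted log2 differences (x axes) of the 15 probe sets above the filter, Ad minus Pp on the left and fragments minus whole embryo on the right, with lines of 1 SE each way, blue for MOE430A and red for MOE430B. Epas1 lies at 1.24 on the left and -3.74 on the right, Adm at -2.11 on the right, and Egln3 1418649_at at 0.56.

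Counted together, 0 of the 15 fitted probe sets passed limma's threshold between Ad and Pp, where 0.169% of all kept probe sets on MOE430A and 0.111% on MOE430B passed in either direction. An unadjusted p under 0.05 was found for 1 of 11 on MOE430A, where 1593 of 13575 probe sets had one, and for 2 of 4 on MOE430B, where 1400 of 13506 did. Ad and Pp did not overlap in 9 of 18 MOE430A probe sets (background 41%) and in 4 of 6 on MOE430B (background 39.3%). Nothing is read from these shares. Without Pp replicate 1 the count of calls was 1, Hif1a 1427418_a_at, whose difference was then 0.53.

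Against the whole embryo, 2 of 11 fitted probe sets on MOE430A fell in the fragments, Hif1a 1416035_at and Vegfa 1420909_at (background 5.18%), and 1 rose, Egln3 1418649_at (background 4.6%). On MOE430B, 2 of 4 fell, Epas1 and Adm (background 1.81%), and 0 rose (background 0.407%); the same 2 were the ones with an unadjusted p under 0.05. The MOE430A count of 3 became 0 without Ad replicate 1 and 0 without Ad replicate 2, and 5 without Pp replicate 1 or Pp replicate 2, where Kdr and Hif1a 1427418_a_at were added. Egln3 lost its call with no centring and with no filter, and Vegfa 1420909_at lies below a filter at the 60th percentile. With the replicate block both lost their calls, and with the Pp numbers crossed Vegfa 1420909_at did. Calls were also gained, that of Kdr with no centring and that of Adm 1416077_at with no filter. On MOE430B Flt1 1440926_at gained a call with no filter (log2 difference -1.26). The MOE430B count of 2 was the same without any one of the fragments. Over all 24 probe sets, every fragment lay below the whole embryo in 10 of 18 on MOE430A (background 35.3%) and 5 of 6 on MOE430B (background 21.9%), and above it in 2 of 18 (background 21.3%) and 0 of 6 (background 25.3%). The members were chosen with this comparison known, and nothing is read from these counts.

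The whole-embryo array of each type is a single sample, whose spread was assumed to be that of the fragments. In these pieces of tissue a lower signal from fewer cells of one type and a lower signal per cell cannot be told apart. Markers of other cells moved in the same direction as Epas1, Adm, Hif1a 1416035_at and 1427418_a_at, Vegfa 1420909_at and Kdr. Of the 10 decidual genes measured on MOE430A, 6 fell in the fragments. Among them the collagen gene Col1a1 was between 290 and 369 units in Ad and Pp and at 4360 in the whole embryo. All 4 fragments of Col1a1, and of Hoxa10 (357 to 411 units), lay below the filter signal, so both were tested through their whole-embryo values alone. The fragments of Prl8a2 averaged 331 units, with Ad replicate 2 at 564, against 6063 in the whole embryo. It too passed the filter only with its whole-embryo value. Of 7 measured endothelial genes the adhesion gene Esam fell (log2 difference -1.01, limma adjusted p = 0.0180), while 3 were positive and the list median was -0.09, where that of all kept probe sets was 0.05. The summed signal of the 7 was 6685 to 6772 in Ad and 5742 to 6129 in Pp, against 8702 in the whole embryo. Cdh5, the endothelial cadherin gene, lay below the filter, with 212 to 308 units over the 4 fragments and 1356 units in the whole embryo.

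Of 5 ectoplacental cone and giant cell genes measured, Hand1 and Plac1 fell (limma adjusted p = 0.0201 and 0.00676), with a summed signal of 5429 to 5942 in Ad and 5646 to 6865 in Pp, against 12009 in the whole embryo. Of 8 extraembryonic ectoderm genes Krt7 fell (limma adjusted p = 0.0163), and the summed signal was 9105 to 9542 in Ad and 8704 to 14109 in Pp, against 14039 in the whole embryo. Of 4 maternal blood genes measured 0 passed in limma, with 1 at an unadjusted p under 0.05. No marker of these lists on MOE430A was at 0, and the lowest was the endothelial gene Vwf, with 48.5 to 57.3 units over the 4 fragments and 66.3 units in the whole embryo. On MOE430B 0 of 2 endothelial genes passed in limma, with 1 at an unadjusted p under 0.05. The part of these cells in the members' differences was not tested.

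The rest of the pathway was read from 4 lists, 91 genes in all on the arrays, by the brightest probe set of each gene. Of these 64 were measured on MOE430A and 28 on MOE430B. Between Ad and Pp, 0 passed in limma on either type, with 15 of 64 and 2 of 28 at an unadjusted p under 0.05, against 1593 of 13575 and 1400 of 13506 for all kept probe sets. Elongin B, encoded by Elob, is part of the ubiquitin ligase that destroys the alpha subunits and had the highest positive difference on MOE430A (6483 and 6463 units in Ad against 4742 and 4653 in Pp, log2 difference 0.37, SE 0.06, limma adjusted p = 0.156). The histone demethylase gene Kdm3a (0.36, adjusted p = 0.287), the adenylate kinase gene Ak4 (0.32, adjusted p = 0.330) and the apelin receptor gene Aplnr (0.29, adjusted p = 0.250) were next by limma. Lower in Ad without overlap were the glycolytic genes Pfkp (-0.41), Aldoc (-0.36) and Pfkl (-0.35) and the ephrin gene Efnb2 (-0.36), with limma adjusted p between 0.298 and 0.418. On MOE430B Pfkl had both Ad arrays above both Pp arrays (0.06), and for Pfkp the groups overlapped (-0.13).

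On MOE430B the same comparison gave Angpt1, a ligand of vessel stability (0.38), the coactivator gene Ep300 (0.36), P4htm, a membrane prolyl hydroxylase (0.27), and Hif1an, the asparaginyl hydroxylase that blocks coactivator binding (0.24), as the highest positive differences among genes whose groups did not overlap, and Ramp1, a partner of the adrenomedullin receptor family (-0.39), and Stc2 (-0.22) as the lowest; limma adjusted p lay between 0.469 and 0.630. The median difference of the HIF target list was -0.11 over 35 genes on MOE430A, where that of all kept probe sets was -0.03, and 6 of 35 were positive. That number was 14 with no centring and 8 under quantile normalization, and the list median -0.04 and -0.10. The other medians on MOE430A were -0.00 for 10 HIF pathway regulators, -0.07 for 5 genes of the Vegf family and co-receptors, and -0.11 for 14 genes of adrenomedullin and other angiogenic signals. On MOE430B they were 0.19, -0.08 and -0.04, with -0.03 for 10 HIF targets and -0.01 for all kept probe sets; with no centring the median of the HIF targets there was 0.05.

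Between the fragments and the whole embryo, 1 of 64 pathway genes rose and 10 fell on MOE430A, and 0 rose and 4 fell of 28 on MOE430B, by limma. All kept probe sets passed at 4.6% and 5.18% on MOE430A, and at 0.407% and 1.81% on MOE430B, upward and downward. Of 35 HIF targets on MOE430A, 6 fell and 1 rose. Igfbp3, an insulin-like growth factor binding protein, had 210 and 372 units in Ad and 299 and 255 in Pp, against 4325 in the whole embryo (limma adjusted p = 0.000645, and 0.00188 with no filter). All 4 fragments lay below the filter signal, so Igfbp3 passed the filter on MOE430A through its whole-embryo value alone. The matrix enzyme genes Lox, which cross-links collagen, and P4ha2, a collagen prolyl hydroxylase, were 3.15-fold and 2.65-fold lower in the fragments (adjusted p = 0.000511 and 0.00248 by limma). Mxi1, a Myc antagonist gene, Ero1a, an oxidase of the endoplasmic reticulum, and the glycogen synthase gene Gys1 fell by less (1.52-fold, 1.44-fold and 1.28-fold lower, limma adjusted p = 0.0127, 0.0295 and 0.0414).

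The target that rose was Pdk1, which restrains pyruvate entry into mitochondria, at 3238 and 3231 units in Ad and 3541 and 3191 in Pp, against 2571 in the whole embryo (1.33-fold, limma adjusted p = 0.0372). On MOE430B its other probe set had 252 and 254 units in Ad and 221 and 237 in Pp, against 154 in the whole embryo, and did not pass (limma adjusted p = 0.116). Like Egln3, Pdk1 had every fragment above the whole embryo, on both array types. Among the glycolytic targets, Pgk1, Aldoa and Tpi1 lay within 0.11 of 0 and did not pass. Pfkl (0.22) and Pfkp (-0.48, every fragment below the whole embryo) lay further from 0 on MOE430A and did not pass either. On MOE430B Pfkp was at 0.29, with every fragment above the whole embryo. Cxcl12, a chemokine gene, was at 0.50 (limma adjusted p = 0.225), with Pp replicate 1 at 999 units and the other fragments between 547 and 675, against 446 in the whole embryo.

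Among the regulators 1 of 10 fell on MOE430A. This was Cited2, which competes with the alpha subunits for their coactivators, at 1933 and 1506 units in Ad and 1736 and 1908 in Pp, against 4252 in the whole embryo (2.12-fold lower, limma adjusted p = 0.00841). Vhl, the ubiquitin ligase subunit that recognises hydroxylated alpha subunits, was at -0.03 on MOE430A and -0.00 on MOE430B and did not pass. On MOE430B 0 of 8 regulators passed in limma, and 0 had an unadjusted p under 0.05.

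Of 14 adrenomedullin and other angiogenic genes on MOE430A 3 fell, and 0 of 5 in the Vegf family and co-receptors passed, with 0 at an unadjusted p under 0.05 in limma. Pdgfra, a platelet-derived growth factor receptor of mesenchymal cells, had 546 and 402 units in Ad and 594 and 647 in Pp, against 2745 in the whole embryo (3.59-fold lower, limma adjusted p = 0.000956). Efnb2 was 1.67-fold and Aplnr 1.42-fold lower in the fragments (limma adjusted p = 0.0438 and 0.0146). Calcrl, the receptor that binds adrenomedullin together with Ramp proteins, was at 0.22 and its partner Ramp2 at -0.20 (limma adjusted p = 0.143 and 0.149). The lymphatic receptor gene Flt4 was at 0.19 (limma adjusted p = 0.213).

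On MOE430B the 4 genes that fell were Igfbp3 (log2 difference -3.88, SE 0.28, limma adjusted p = 0.00195) and Pdgfra (-2.48, SE 0.17, limma adjusted p = 0.00163), as on MOE430A, with the endothelin receptor gene Ednrb (-3.07, SE 0.36, limma adjusted p = 0.00973) and Pfkfb4, which sets the level of a glycolytic activator (-1.04, SE 0.15, limma adjusted p = 0.0244). The Ednrb probe set on MOE430A lay below the filter, with 366 to 431 units over the 4 fragments and 431 in the whole embryo. Jag1 (0.66), Stc2 and Acvrl1 (0.44 each) had every fragment above the whole embryo and did not pass (limma adjusted p = 0.233, 0.240 and 0.232). On MOE430A this order held for Stc2 (0.14), while for Jag1 the whole embryo lay within the range of the fragments. Acvrl1, below the filter there, had the reverse order, with 399 to 426 units over the 4 fragments and 488 in the whole embryo. The median difference was -0.03 over the 64 pathway genes on MOE430A and -0.04 over the 28 on MOE430B, against 0.05 and 0.03 over all kept probe sets.

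Some of these calls changed with the setting. A fit without 1 of the fragment arrays leaves 1 array in that group, so its residual spread comes from the other fragment group alone. Without Ad replicate 1 the MOE430A calls of Pdk1, Efnb2, Mxi1, Ero1a, Aplnr and Gys1 ended (limma adjusted p = 0.133, 0.143, 0.0713, 0.0786, 0.0813 and 0.145), and without Ad replicate 2 the same 6 ended (0.156, 0.161, 0.0650, 0.114, 0.0931 and 0.167). Pdk1 also lost its call with no centring (0.0678) and with an intensity trend (0.0517), and Efnb2 with no filter (0.0640). With the replicate number as a block the calls of Pdk1 (0.0902), Ero1a (0.0822), Aplnr (0.0521) and Gys1 (0.127) ended, and with the Pp numbers crossed, a setting chosen after seeing the data, those of Pdk1 (0.0595), Efnb2 (0.0624) and Gys1 (0.0673). Pfkfb4 lost its call without Ad replicate 3 (0.141), without Ad replicate 4 (0.140) and with no filter (0.0653). Igfbp3, Lox, Pdgfra, P4ha2 and Cited2 on MOE430A and Igfbp3, Pdgfra and Ednrb on MOE430B passed under each setting in which they were tested.

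**Figure D4:**
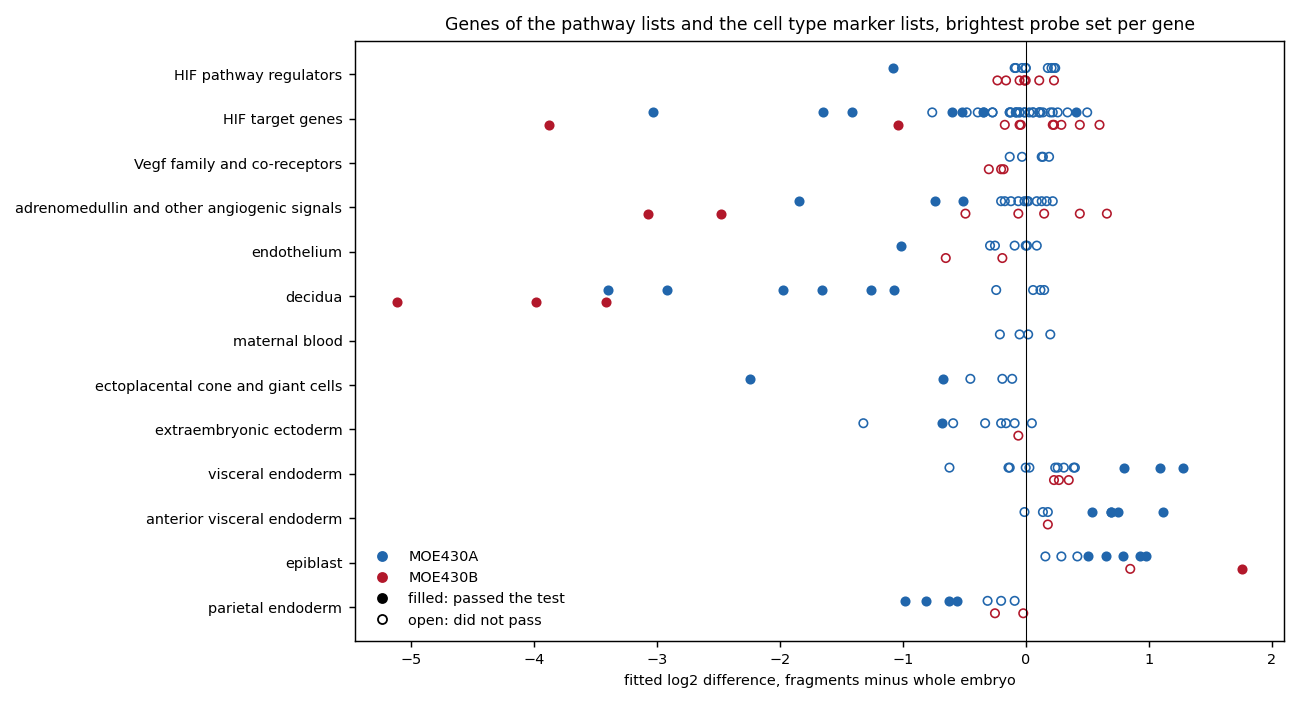
Fitted log2 difference, fragments minus whole embryo (x axis), for each measured gene of the 4 pathway lists and the 9 marker lists, brightest probe set per gene; blue is MOE430A, red MOE430B, and filled points passed limma's threshold. Igfbp3 lies at -3.03 and -3.88 in the HIF target row and Pdk1 at 0.41. The decidual row reaches -5.11 for Esr1 on MOE430B, where Esr1 on MOE430A lies at 0.15.

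The genes nearest in pattern were sought for Hif1a, Vegfa and Adm by the root mean square difference of gene-centred log2 values over the 5 arrays of a type, among the kept probe sets with 1 symbol. For Hif1a 1427418_a_at they were Macf1, Nudt7 and Slc25a51 (0.0396, 0.0742 and 0.0875). For Vegfa 1451959_a_at, which varied little, they were Ppp1ca, Tsc2 and Psma5 (0.0104, 0.0111 and 0.0130). For Adm 1447839_x_at they were Igf1, Prkg2 and Col8a2 (0.0544, 0.0632 and 0.0773). With 5 arrays of 3 kinds of sample, the order among the 12431 candidates on MOE430A and 9403 on MOE430B is a description of these arrays.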

How the data were processed

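The authors made the probe set intensity values with MAS5, per the submitters' processing notes; neither its version nor its scaling target is given in the sources used here. Medians of the deposited intensity ran from 591 to 645 over the MOE430A arrays and from 56.7 to 61.0 over those of MOE430B. Values of exactly 1 made up at most 0.133% of each MOE430A array and 5.70% to 6.14% of each MOE430B array. Precision is limited by how few arrays there are.

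The array types were fitted separately (limma 3.58.1 under R 4.3.3), without the 64 control probe sets of each. After adding the 20th percentile as a pseudocount, taking log2 and keeping probe sets above the 40th percentile of mean log2 value (13575 of 22626 on MOE430A, 13506 of 22511 on MOE430B), each array was centred on its median. All 5 arrays entered a model with 3 groups and 2 residual degrees of freedom (lmFit, eBayes). The code was tried on simulated arrays with a common spread and a change in Ad only. That run does not cover the comparison with the whole embryo or unequal spreads. Tests were two-sided, with Benjamini-Hochberg adjustment over the kept probe sets. Names came from the platform's annotation table, with exactly 1 symbol for 20380 and 14661 probe sets; 20351 and 14486 gene identifiers matched RefSeq (GRCm38.p6), with 0 symbols changed.

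The members, the 4 pathway lists, the 9 marker lists and the tests were chosen with earlier results of these data known. The text names each member probe set, and, of the pathway lists, genes past the threshold (up to 12 each way, filled to 4 each way with the largest non-overlapping differences), and, of marker lists, defining genes a result needs; the glycolytic targets, Vhl, Ramp2 and the single marker genes were named after their values were seen. Same-numbered Ad and Pp arrays did not deviate together from their group means (correlation -0.242 on MOE430A and -0.0392 on MOE430B), so the numbers were not taken as pairs. Alternatives were other scalings, pseudocounts and filters, an intensity trend, the replicate number as a block, another choice of probe set per gene and leaving out each array. No sample column was left unused.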

Additional observations from a re-analysis of the deposited data

How the results depend on the processing

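With 2 arrays a group and 1 whole-embryo array, which array is left out mattered most. The count of pathway genes past limma's threshold between Ad and Pp on MOE430A, 0 of 64, ran between 0 and 9 over the leave-one-out fits, the 9 without Pp replicate 1 and 5 without Pp replicate 2, and that of member probe sets between 0 and 1. Against the whole embryo on MOE430A the 11 pathway calls ran between 5 and 20, the 5 when either one of the Ad arrays was left out and the 18 and 20 without Pp replicate 1 and Pp replicate 2, and the 3 member calls between 0 and 5. With the replicate block the member calls there were 1 and the pathway calls 8, of which 7 were shared with the 11; on MOE430B the block left 2 member calls and 4 pathway calls, and between Ad and Pp 0 in each. With Pp numbers crossed on MOE430A, a setting chosen after seeing the data, the counts were 8 pathway and 2 member calls against the whole embryo and 0 between Ad and Pp. The filter at the 60th percentile left 2 of the 4 pathway calls on MOE430B, with 21 genes measured. The other settings that kept all arrays left each of these counts within 1.5 times. No fitted difference past the threshold, of a member or a named pathway gene, changed sign. Low signal limits Hif1a, Epas1, Arnt, Egln1, Flt1 and Adm on MOE430A and Arnt and Flt1 on MOE430B, where some probe sets lay below the filter.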
